A study of Mus musculus with 12 samples.

Results

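RNA levels of 9 genes that write, copy or remove DNA methylation were followed in mouse embryonic stem cells (mESCs) after induced deletion of *Prdm10*, which encodes a zinc finger transcription factor. The genes were *Dnmt1*, *Uhrf1*, *Dnmt3a*, *Dnmt3b*, *Dnmt3l*, *Tet1*, *Tet2*, *Tet3* and *Tdg*, matched by symbol among the 54146 genes of the deposited tables, and all 9 were found. The mESCs were of the C57BL/6 strain and carried floxed *Prdm10* with a tamoxifen-inducible Cre (genotype Prdm10F/F; Rosa26-CreERT2 in the EtOH groups). They were exposed for 24 h to 50 nM 4-hydroxytamoxifen (OHT; genotype labelled Prdm10del/del; Rosa26-CreERT2) or to the ethanol vehicle (EtOH) and harvested at Day 2 or Day 4, with 3 libraries in each of the 4 groups. All cells were grown in serum with LIF on gelatin. The inducible Cre was present in every group, and no group received OHT without the floxed allele. Whether the 3 libraries of a group came from separate cultures is not stated in the labels, so that the p-values below measure the spread between libraries, which may be technical.

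In mammals, the maintenance methyltransferase DNMT1 copies CpG methylation onto the new strand after replication and is brought to hemimethylated sites by UHRF1. DNMT3A and DNMT3B place methylation on unmethylated DNA, and DNMT3L, which has no catalytic activity of its own, stimulates both. The TET dioxygenases oxidise 5-methylcytosine, and TDG excises the most oxidised forms so that base excision repair can restore cytosine. In mESCs, TET2 is characteristic of the naive state, whereas DNMT3A and DNMT3B rise when cells leave it.

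Depth was similar in all groups, with 35017667 to 41409992 expected counts per library. These are RSEM estimates of how many read pairs came from each gene. The 9 genes had between 200 (*Tet3*) and 23721 (*Tet1*) expected counts in a library, and the posterior SD of those counts was at most 0.183% of the count, so that few of their reads were shared with other genes. *Prdm10* transcript was higher in the libraries labelled OHT, by 1.44 on the log2 scale at Day 2 and 1.21 at Day 4, and gene-level counts include reads from outside the deleted part. The treated groups are therefore called the libraries labelled OHT. The study itself verified the recombination after OHT in DNA, in transcript of the deleted exon by qRT-PCR and in PRDM10 protein. All 10 markers of mESCs were above 1 TPM (RSEM's transcript level, scaled to gene length and library) in every group, and their sum lay between 2245 and 2687 TPM. At Day 4 it was 2245 to 2513 TPM in the EtOH libraries and 2585 to 2687 TPM in those labelled OHT. The largest part of this sum was *Dppa5a*, at 1127 to 1479 TPM over all libraries, so the sum does not show how each marker differed. The 6 markers of 2-cell-like cells summed to at most 1.2 TPM, the 6 of primitive endoderm to at most 2.49 TPM and the 6 of fibroblast feeders to at most 3.17 TPM. At Day 4 some of these low sums differed between the labels without overlap. Feeder markers were at 2.21 to 3.06 TPM in EtOH and 0.85 to 1.36 TPM in the libraries labelled OHT, and 2-cell-like markers at 1.2 TPM against 0.41 to 0.84 TPM. Most of the feeder sum was *Thy1*, at 0.59 to 2.84 TPM over all libraries, and each other feeder marker was at most 0.27 TPM. A trophectoderm list summed to 28.2 to 36.1 TPM, of which *Tfap2c* took 26.8 to 34.2 TPM and *Cdx2* at most 0.11 TPM. At Day 4 this list was at 28.2 to 29.0 TPM in EtOH and 34.9 to 35.8 TPM in the libraries labelled OHT. The part of these markers in the Day 4 results was not tested. These being bulk samples, fewer cells of a type and less RNA per cell cannot be told apart.

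Of the 9 genes, *Dnmt1* alone is on the list of PRDM10-bound genes from ChIP-seq. The study listed a gene when a bound site lay within or near it, so the listing does not place a site in the windows below. The sequences below are shown for orientation, because they contrast the promoter windows of the gene that was lower at both days with that of a gene that was higher at both. Each is a RefSeq window of 300 bases on GRCm38.p6, written 5′ to 3′ on the strand of the gene, with CpG in capitals. The first is the upstream *Dnmt1* start at chr9:20959839-20960138, minus strand. The second is the CpG-rich *Dnmt1* start at chr9:20952574-20952873, minus strand. The third is the upstream *Dnmt3l* start at chr10:78042037-78042336, plus strand.
Dnmt1 upstream start: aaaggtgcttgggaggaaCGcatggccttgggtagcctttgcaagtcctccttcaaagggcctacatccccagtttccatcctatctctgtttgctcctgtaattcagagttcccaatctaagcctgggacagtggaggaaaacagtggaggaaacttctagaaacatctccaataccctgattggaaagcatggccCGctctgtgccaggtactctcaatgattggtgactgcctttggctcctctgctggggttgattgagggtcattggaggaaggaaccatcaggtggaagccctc
Dnmt1 CpG-rich start: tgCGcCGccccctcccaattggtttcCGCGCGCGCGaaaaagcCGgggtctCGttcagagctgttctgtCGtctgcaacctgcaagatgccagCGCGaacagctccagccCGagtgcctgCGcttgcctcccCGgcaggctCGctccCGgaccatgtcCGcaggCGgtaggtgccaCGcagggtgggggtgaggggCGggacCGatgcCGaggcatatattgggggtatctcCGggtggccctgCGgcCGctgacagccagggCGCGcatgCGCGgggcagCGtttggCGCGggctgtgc
Dnmt3l upstream start: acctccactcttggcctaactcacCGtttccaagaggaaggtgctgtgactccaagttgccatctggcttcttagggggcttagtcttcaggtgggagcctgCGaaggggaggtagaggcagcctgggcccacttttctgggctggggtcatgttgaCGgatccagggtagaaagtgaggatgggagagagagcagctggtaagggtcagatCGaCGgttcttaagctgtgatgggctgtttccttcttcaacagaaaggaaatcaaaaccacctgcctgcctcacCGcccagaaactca
The upstream *Dnmt1* window held 2 CpG, the other *Dnmt1* window above 33, a further *Dnmt1* window not shown (chr9:20952930-20953229) 12, and the *Dnmt3l* window 6, against a median of 7 over 32851 windows of the same table. Among the other genes the densest window was that of *Tet2*, with 57 CpG, more than in 99.8% of all windows. *Dnmt3l* has 3 windows in the table, with 6, 4 and 3 CpG.

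The DNA probe that the study used for PRDM10 binding is shown because its core gives letters that can be sought in these windows. Capitals mark TGGTNNNGCCC, the letters replaced in the mutated probe with N for those kept between them.
Wild-type probe: ctggcacagTGGTCGCGCCCggcccgcc
Mutated probe: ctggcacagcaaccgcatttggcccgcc
Read on both strands, TGGTNNNGCCC occurred in 0 of the 16 windows of the 9 genes and in 1.4% of all 32851 windows, which says only that these letters are not in these windows. The gene-level tables do not separate the *Dnmt1* starts.

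Compared per length, as TPM, *Uhrf1* was the most abundant of the 9 in every group and *Dnmt3l* came next. *Uhrf1* was at 95.2 ± 1.67 TPM (SD, n = 3) in the EtOH libraries at Day 2 and 134 ± 1.2 TPM (SD, n = 3) at Day 4. *Dnmt3l* was at 73.6 ± 1.69 and 76.9 ± 4.63 TPM (SD, n = 3) in the same groups. *Tet3* was the least abundant, with 0.50 to 0.79 TPM over all 12 libraries. The order of the remaining 6 genes differed between the groups. In the Day 2 EtOH libraries it ran *Dnmt1* (46.8 TPM), *Tet1* (43.9), *Tdg* (39.4), *Dnmt3a* (28.6), *Tet2* (22.6) and *Dnmt3b* (20.9), where the ranges of *Dnmt1* and *Tet1*, of *Tet1* and *Tdg*, and of *Tet2* and *Dnmt3b* overlapped. By Day 4 in EtOH, *Dnmt3a* had rank 3 at 69.5 ± 2.26 TPM (SD, n = 3), above *Dnmt1* at 59.4 ± 1.26 TPM (SD, n = 3). In the Day 2 libraries labelled OHT, *Tet1* had rank 3 at 62.3 ± 1.78 TPM (SD, n = 3) and *Dnmt1* rank 5 at 35.4 ± 1.13 TPM (SD, n = 3). In those of Day 4, *Dnmt3a* had rank 3 at 40.6 ± 1.2 TPM (SD, n = 3), and *Tet1*, at 29.8 ± 1.63 TPM (SD, n = 3), had rank 6. In both OHT groups no neighbours in the order had overlapping ranges, and at Day 4 in EtOH only *Tet1* and *Tdg* did. The plot of TPM by library shows all 9 genes.

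**Figure D1:**
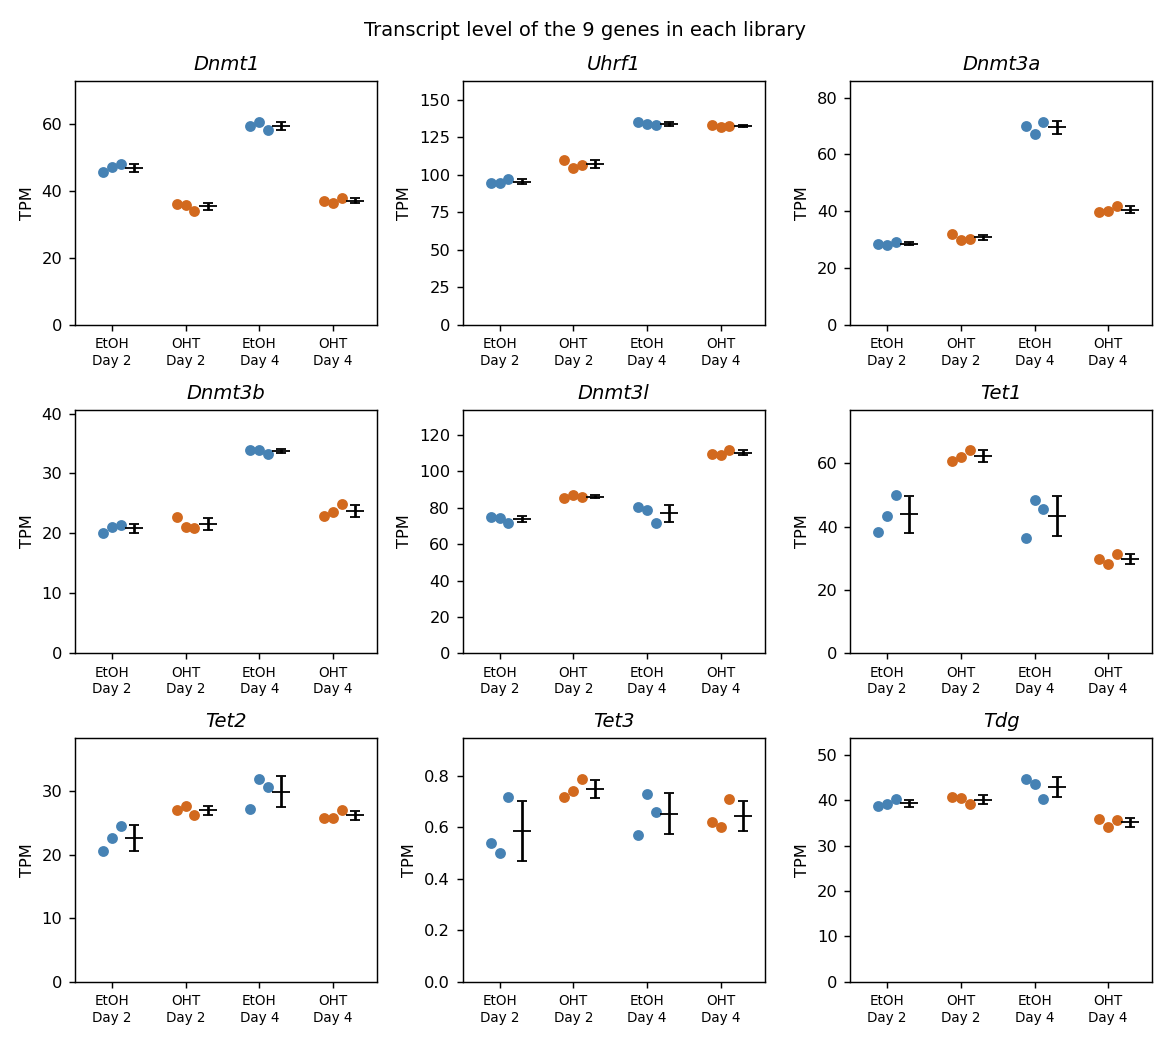
Level of each of the 9 genes in TPM (vertical axes, from 0) in the 12 libraries. Points are libraries, blue for EtOH and orange for those labelled OHT, and the black bar beside them is the mean with its SD (n = 3). *Dnmt3a* in EtOH goes from 28.6 TPM at Day 2 to 69.5 TPM at Day 4, and *Tet1* in EtOH is at 43.9 ± 5.90 TPM at Day 2 and 43.4 ± 6.26 TPM at Day 4.

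Whether loss of *Prdm10* moved these genes was examined by setting the libraries labelled OHT against EtOH at each day with DESeq2 on the rounded expected counts. A gene was called at a Benjamini-Hochberg adjusted p, over all genes, below 0.05 with a mean normalised count above 100. Counts below are normalised counts (scaled by DESeq2 size factors over the 12 libraries), and fold changes are log2 values ± SE. At Day 2, 2 of the 9 genes were called higher (background 9.17% of 11644 genes) and 1 lower (background 10.6%). At Day 4, 1 was called higher (background 23.5% of 11555 genes) and 6 lower (background 21.7%). Over all genes tested, the median was -0.03 (Day 2) and 0.01 (Day 4) on the log2 scale.

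*Dnmt1*, the maintenance methyltransferase, was lower at both days. Its normalised counts in the EtOH libraries of Day 2 were 10878, 11015 and 11023, and those of the libraries labelled OHT were 7758, 7900 and 7868. At Day 4 they were 12676, 12751 and 12688 in EtOH against 8064, 8098 and 8194. The groups did not overlap on either day. The log2 fold change was -0.48 ± 0.04 at Day 2 (DESeq2, adjusted p = 1.69e-35) and -0.65 ± 0.03 at Day 4 (DESeq2, adjusted p = 3.23e-106). Between the days *Dnmt1* rose in EtOH by 0.21 ± 0.03 (DESeq2, adjusted p = 9.45e-10), whereas in the libraries labelled OHT the difference was 0.05 ± 0.03 and not called (DESeq2, adjusted p = 0.247). With each library's trend on gene length removed, the rise was called in both, at 0.23 in EtOH (DESeq2, adjusted p = 1.78e-13) and 0.15 in the libraries labelled OHT (DESeq2, adjusted p = 8.50e-05). The Day 4 effect was larger than that of Day 2 by the interaction test (-0.16 ± 0.03, DESeq2, adjusted p = 2.88e-05). That call was lost with the length trend removed (-0.08, DESeq2, adjusted p = 0.0723).

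*Uhrf1*, which brings DNMT1 to replicated DNA, was not called at either day. Its counts were 14603, 14355 and 14480 in EtOH and 15329, 14938 and 15913 in the libraries labelled OHT at Day 2. The second set lay above the first, yet the log2 fold change was 0.09 ± 0.04 (DESeq2, adjusted p = 0.0983), and it was called by edgeR (0.10, adjusted p = 0.0271), with total counts (0.13, DESeq2, adjusted p = 0.0100) and in a single fit of the 12 libraries (0.09, DESeq2, adjusted p = 0.0103). The Day 4 counts were 18951, 18514 and 18914 against 19063, 19079 and 18777. These overlapped, with a log2 fold change of 0.01 ± 0.03 (DESeq2, adjusted p = 0.806). *Uhrf1* rose from Day 2 to Day 4 in EtOH by 0.37 ± 0.03 (DESeq2, adjusted p = 7.94e-32) and in the libraries labelled OHT by 0.30 ± 0.03 (DESeq2, adjusted p = 1.65e-17). The ratio of *Uhrf1* to *Dnmt1* TPM within a library was 2.03 ± 0.03 in EtOH and 3.03 ± 0.10 in the libraries labelled OHT at Day 2 (SD, n = 3), and 2.26 ± 0.05 against 3.57 ± 0.05 at Day 4. On each day the 3 libraries of one label lay apart from those of the other, with an exact permutation p of 0.1, two-sided, which is the smallest that 3 against 3 allows.

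The de novo methyltransferases were not called at Day 2 and were lower at Day 4. *Dnmt3a* had counts of 4869, 4762 and 4753 in EtOH and 4869, 4528 and 4919 in the libraries labelled OHT at Day 2, which overlapped (log2 fold change -0.01 ± 0.05, DESeq2, adjusted p = 0.956). At Day 4 its counts were 9748, 9293 and 9512 in EtOH and 6003, 6284 and 6074 in those labelled OHT. All of the latter lay between the Day 2 values and the Day 4 EtOH values. The log2 fold change at Day 4 was -0.64 ± 0.03 (DESeq2, adjusted p = 5.56e-74). With time *Dnmt3a* rose by 0.99 ± 0.04 in EtOH (DESeq2, adjusted p = 4.55e-152) and by 0.36 ± 0.04 in the libraries labelled OHT (DESeq2, adjusted p = 2.30e-15). The difference between the days in the OHT effect was -0.63 ± 0.05 (DESeq2, adjusted p = 4.81e-30).

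*Dnmt3b* followed the same course at a smaller size. At Day 2 its counts were 3791, 3940 and 3838 in EtOH and 3823, 3529 and 3679 in the libraries labelled OHT, with overlapping ranges and a log2 fold change of -0.07 ± 0.05 (DESeq2, adjusted p = 0.397). At Day 4 they were 5633, 5664 and 5629 against 3890, 4099 and 4182. These groups did not overlap, and the log2 fold change was -0.48 ± 0.04 (DESeq2, adjusted p = 3.30e-33). *Dnmt3b* rose with time by 0.55 ± 0.04 in EtOH (DESeq2, adjusted p = 7.81e-41) and by 0.14 ± 0.05 in the libraries labelled OHT (DESeq2, adjusted p = 0.00781), where the call was lost without any 1 of Day 2 OHT replicate 2 and Day 4 OHT replicates 2 and 3 (adjusted p between 0.0529 and 0.0799). The interaction was -0.41 ± 0.06 (DESeq2, adjusted p = 1.60e-11). As *Dnmt3b* also marks primed epiblast, the 5 other primed markers were summed. They came to 10.1 to 10.9 TPM in EtOH and 8.75 to 9.80 TPM in the libraries labelled OHT at Day 2. At Day 4 the order was the opposite, with 7.22 to 7.68 TPM in EtOH and 8.07 to 9.45 TPM in those labelled OHT, and *Fgf5* at no more than 0.18 TPM in any library.

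The effective length of *Dnmt3a*, which depends on the mix of its transcripts, also differed at Day 4. It was 3241, 3236 and 3013 bases in EtOH and 3436, 3498 and 3320 bases in the libraries labelled OHT. Those at Day 2 were between 3408 and 3576 bases in all 6 libraries, so that the Day 4 EtOH libraries were the ones that stood apart. The Day 4 difference was 8.05% of the EtOH mean (exact permutation p = 0.1, two-sided, the smallest possible). With effective lengths in the fit, the Day 4 log2 fold change of *Dnmt3a* was -0.74. *Dnmt3b* lengths differed by -0.01% at Day 4 (exact permutation p = 1, two-sided). The *Dnmt3a* to *Dnmt3b* ratio of TPM was 1.37 ± 0.05 in EtOH and 1.42 ± 0.02 in the libraries labelled OHT at Day 2 (SD, n = 3; exact permutation p = 0.3), and 2.06 ± 0.08 against 1.71 ± 0.02 at Day 4 (exact permutation p = 0.1).

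*Dnmt3l*, the non-catalytic cofactor of both enzymes, went the other way. At Day 2 its counts were 5432, 5317 and 4964 in EtOH and 5595, 5762 and 6017 in the libraries labelled OHT. The lowest of the latter was close to the highest of the former. The log2 fold change was 0.15 ± 0.05 (DESeq2, adjusted p = 0.0206), and this call was lost without any 1 of EtOH replicates 2 and 3 and OHT replicates 2 and 3 (adjusted p between 0.0682 and 0.127). At Day 4 the counts were 5175, 5008 and 4742 in EtOH against 7251, 7307 and 7318, which are well apart. The log2 fold change at Day 4 was 0.55 ± 0.04 (DESeq2, adjusted p = 2.85e-45), and the interaction was 0.41 ± 0.06 (DESeq2, adjusted p = 7.57e-10). In EtOH *Dnmt3l* differed between the days by -0.08 ± 0.05 (DESeq2, adjusted p = 0.215), and in the libraries labelled OHT it rose by 0.34 ± 0.04 (DESeq2, adjusted p = 4.02e-16). The ratio of *Dnmt3l* to the sum of *Dnmt3a* and *Dnmt3b* was 1.49 ± 0.07 in EtOH and 1.65 ± 0.08 in the libraries labelled OHT at Day 2 (SD, n = 3). At Day 4 it was 0.745 ± 0.05 against 1.71 ± 0.04 (SD, n = 3). Both comparisons gave an exact permutation p of 0.1, two-sided. The Day 4 libraries labelled OHT thus had a ratio near those of Day 2, 2.30-fold that of the Day 4 EtOH libraries. The mean effective length of *Dnmt3a*, by which its TPM is divided, was 3163 bases in EtOH and 3418 bases in the libraries labelled OHT at Day 4. The part of this length in the ratio was not tested.

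**Figure D2:**
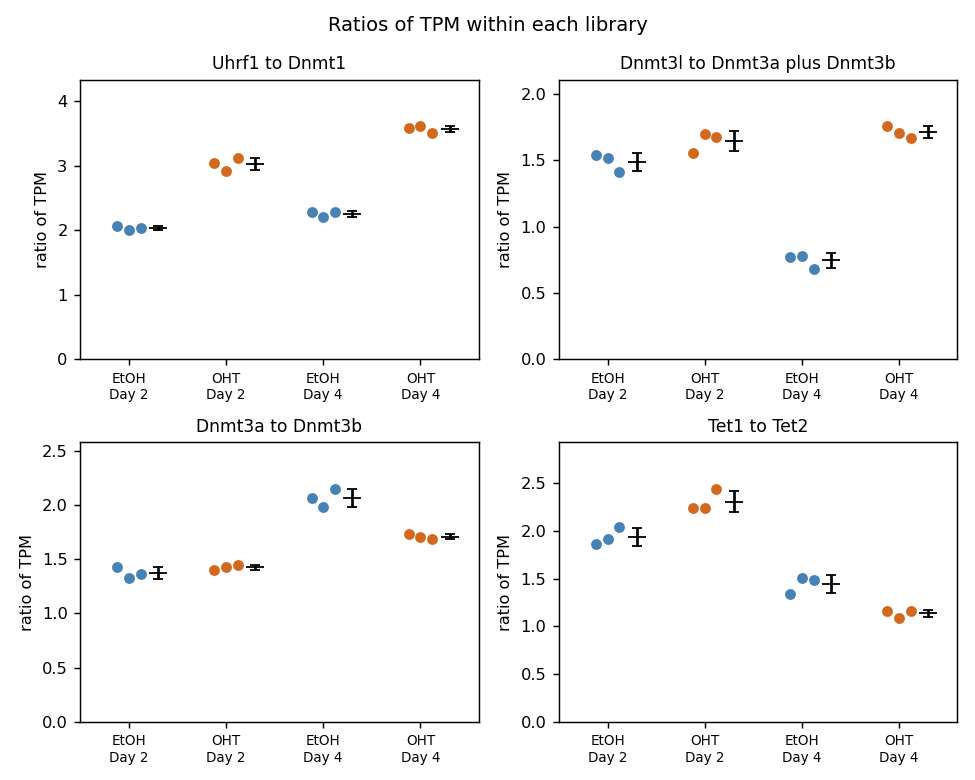
Ratios of TPM within each library for 4 pairs of related genes (vertical axes, from 0). Points are libraries, blue for EtOH and orange for those labelled OHT, and the black bar is the mean with its SD (n = 3). The *Uhrf1* to *Dnmt1* ratio is at least 2.92 in every library labelled OHT and at most 2.29 in every EtOH library, and the *Tet1* to *Tet2* ratio is above EtOH at Day 2 and below it at Day 4.

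*Tet1*, the main TET enzyme of mESCs, was higher at Day 2 and lower at Day 4 in the libraries labelled OHT. Its counts at Day 2 were 14039, 16236 and 17871 in EtOH and 22011, 22265 and 23836 in those labelled OHT. At Day 4 they were 12783, 17131 and 17000 in EtOH and 10578, 10690 and 11289. The groups did not overlap on either day, but the EtOH libraries were spread widely. The log2 fold change was 0.50 ± 0.11 at Day 2 (DESeq2, adjusted p = 1.28e-04) and -0.53 ± 0.13 at Day 4 (DESeq2, adjusted p = 4.98e-04). The 2 effects differed by -1.03 ± 0.17 (DESeq2, adjusted p = 6.93e-08). From Day 2 to Day 4 *Tet1* fell by 1.06 on the log2 scale in the libraries labelled OHT (SE 0.04, DESeq2, adjusted p = 1.51e-150), and in EtOH the difference was -0.04 ± 0.15 (DESeq2, adjusted p = 0.884).

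*Tet1* is among the longest of the 9 transcripts, and the level of long genes varied between the libraries. Over the 529 genes with an effective length above 6000 bases, the median log2 deviation from each gene's mean was -0.07, -0.04 and 0.02 in the Day 2 EtOH libraries and 0.10, 0.11 and 0.13 in those labelled OHT. At Day 4 it was -0.10, -0.00 and 0.01 in EtOH and -0.05, -0.06 and -0.03 in those labelled OHT. Within each EtOH group, the library with the lowest *Tet1* was also that with the lowest long genes. These genes had a median log2 fold change of 0.13 at Day 2 and -0.04 at Day 4. With the length trend of each library removed, *Tet1* remained called, at 0.32 (DESeq2, adjusted p = 9.18e-09) at Day 2 and -0.50 (DESeq2, adjusted p = 4.76e-06) at Day 4, and the interaction was -0.82 (DESeq2, adjusted p = 9.55e-10). The effective length of *Tet1* at Day 2 was 7574 to 7838 bases in EtOH and 7964 to 8295 bases in the libraries labelled OHT (exact permutation p = 0.1, two-sided).

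**Figure D3:**
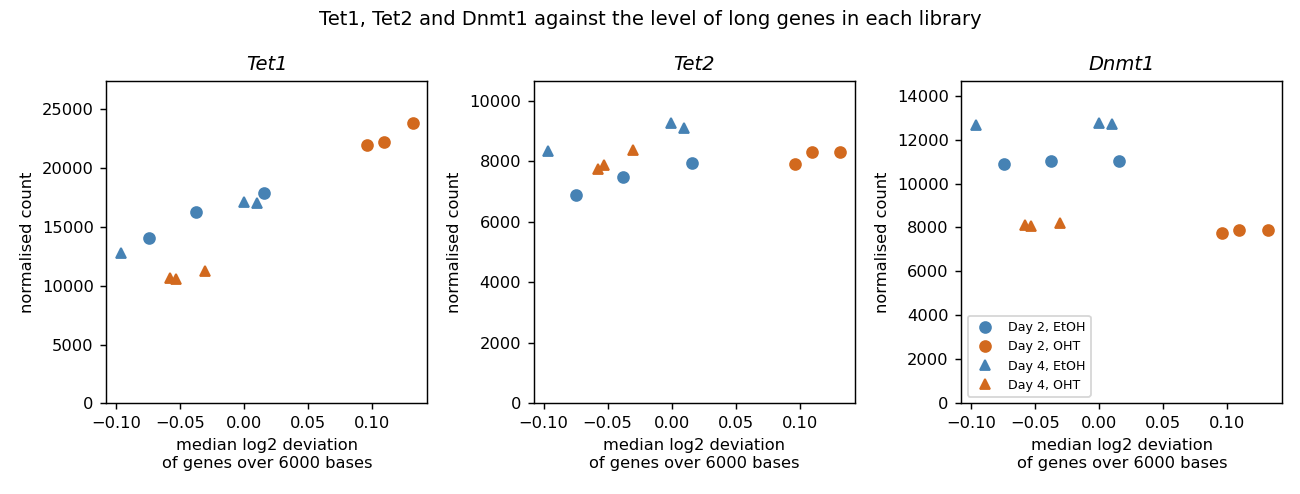
Normalised counts of *Tet1*, *Tet2* and *Dnmt1* (vertical axes, from 0) against the median log2 deviation of the 529 genes with effective lengths above 6000 bases in the same library (horizontal axes). Circles are Day 2, triangles Day 4, blue EtOH and orange those labelled OHT. The Day 2 libraries labelled OHT lie at 0.10 to 0.13 on the horizontal axis, right of all the others, and the Day 4 ones lie at -0.06 to -0.03, below EtOH in *Tet1* and *Dnmt1*.

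*Tet2*, the next most abundant TET, moved less than *Tet1*. At Day 2 its counts were 6892, 7479 and 7952 in EtOH and 7913, 8292 and 8301 in the libraries labelled OHT. They overlapped narrowly, and the log2 fold change of 0.14 ± 0.05 was not called (DESeq2, adjusted p = 0.0594). The value was -0.01 with the length trend removed (DESeq2, adjusted p = 0.953) and was called by edgeR (0.15, adjusted p = 0.00362). It was also called with total counts (0.17, DESeq2, adjusted p = 0.0137), with effective lengths (0.17, DESeq2, adjusted p = 0.0191; with the replicate block added, 0.0205) and without EtOH replicate 3 (0.19, DESeq2, adjusted p = 0.0052). TMM factors, a single fit of the 12 libraries and adjustment over genes above the minimum mean alone placed it just under the threshold (DESeq2, adjusted p between 0.0475 and 0.0495). At Day 4 the counts were 8322, 9261 and 9103 in EtOH and 7891, 7751 and 8365 in those labelled OHT. The ranges overlapped there too, with a log2 fold change of -0.15 ± 0.04 (DESeq2, adjusted p = 0.00149). *Tet2* rose with time in EtOH by 0.26 ± 0.05 (DESeq2, adjusted p = 1.06e-05), and the interaction was -0.29 ± 0.07 (DESeq2, adjusted p = 8.96e-04), or -0.13 with the length trend removed (DESeq2, adjusted p = 0.041). The *Tet1* to *Tet2* ratio of TPM was 1.94 ± 0.09 in EtOH and 2.31 ± 0.11 in the libraries labelled OHT at Day 2 (SD, n = 3). At Day 4 it was 1.45 ± 0.09 against 1.14 ± 0.04. Each day gave an exact permutation p of 0.1, two-sided. TPM is divided by effective length. At Day 2 the OHT against EtOH difference in that length was 5.62% for *Tet1* and -2.63% for *Tet2*. Neither gene's lengths overlapped between the labels (exact permutation p = 0.1, two-sided). The part of these lengths in the ratio was not tested.

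*Tet3*, the TET of oocytes and neurons, was near the lower end of what could be tested, with 189 to 319 normalised counts per library. Its ranges overlapped on both days. The log2 fold change was 0.32 ± 0.16 at Day 2 (DESeq2, adjusted p = 0.164) and -0.02 ± 0.14 at Day 4 (DESeq2, adjusted p = 0.926), neither of which was called. The Day 2 value was called by edgeR (0.33, adjusted p = 0.00835) and without EtOH replicate 3 (0.53, DESeq2, adjusted p = 0.0098).

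*Tdg*, the glycosylase that acts after the TET enzymes, was called at Day 4. At Day 2 its counts were 4455, 4514 and 4509 in EtOH and 4203, 4223 and 4456 in the libraries labelled OHT, which just overlapped (log2 fold change -0.06 ± 0.05, DESeq2, adjusted p = 0.381). At Day 4 they were 4522, 4477 and 4327 in EtOH and 3760, 3643 and 3700 in those labelled OHT. These were apart, with a log2 fold change of -0.27 ± 0.04 (DESeq2, adjusted p = 2.29e-10). In EtOH *Tdg* differed between the days by -0.02 ± 0.04 (DESeq2, adjusted p = 0.780). In the libraries labelled OHT it fell by 0.21 on the log2 scale (SE 0.04, DESeq2, adjusted p = 7.82e-06), and the interaction was -0.20 ± 0.05 (DESeq2, adjusted p = 7.66e-04).

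Set side by side, the change with time in EtOH was called higher for 5 of the 9 genes (*Dnmt1*, *Uhrf1*, *Dnmt3a*, *Dnmt3b* and *Tet2*; background 20.6% of 11572 genes) and lower for 0 (background 20.5%; 0 also by edgeR and at an unadjusted DESeq2 p under 0.05). In the libraries labelled OHT it was higher for 4 (*Uhrf1*, *Dnmt3a*, *Dnmt3b* and *Dnmt3l*; background 30.7% of 11638 genes) and lower for 2 (*Tet1* and *Tdg*; background 22.9%). The interaction was called for 7 genes, higher for *Dnmt3l* (background 18.7% of 11616 genes) and lower for the 6 others (background 13.6%). The exceptions were *Uhrf1* (-0.07 ± 0.04, DESeq2, adjusted p = 0.160) and *Tet3* (-0.34 ± 0.22, DESeq2, adjusted p = 0.281). That of *Uhrf1* was called with total counts (-0.12, DESeq2, adjusted p = 0.00492). That of *Tet3* was called by edgeR (-0.34, adjusted p = 0.0246) and without Day 2 EtOH replicate 3 (-0.55, DESeq2, adjusted p = 0.0302). These comparisons share libraries, since each group enters more than 1 of them.

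**Figure D4:**
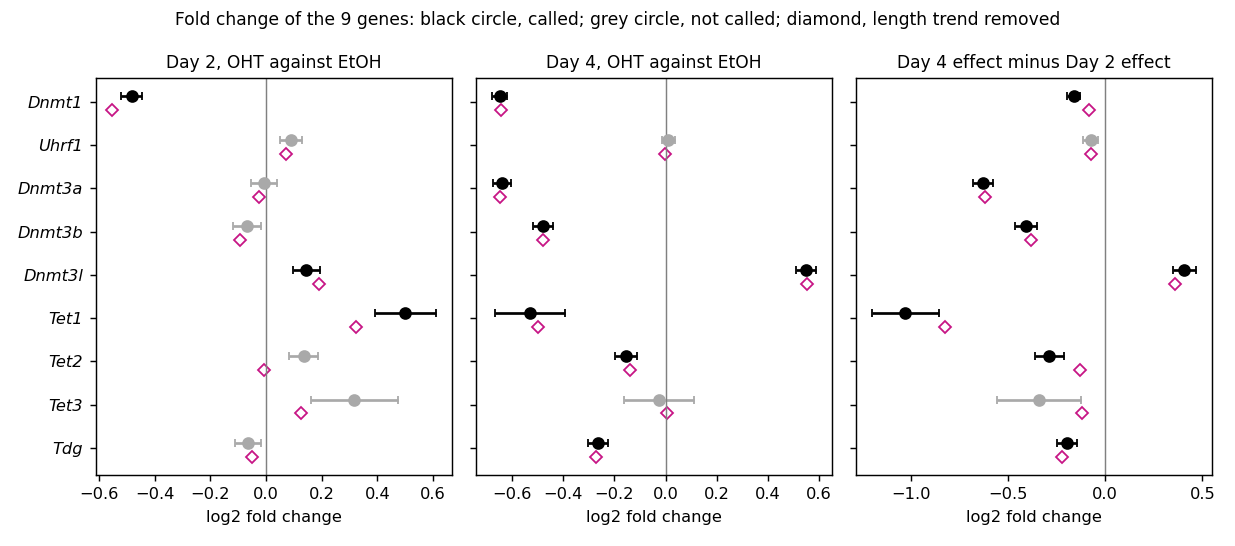
Log2 fold change (horizontal axes) of the 9 genes at Day 2, at Day 4 and as the Day 4 effect minus the Day 2 effect. Circles with SE bars are the DESeq2 estimates, black where called and grey where not, and open diamonds are the values with each library's length trend removed. At Day 4, *Dnmt1* (-0.65), *Dnmt3a* (-0.64) and *Dnmt3b* (-0.48) lie left of 0 and *Dnmt3l* (0.55) right of it, and the diamonds of *Tet1* (0.32) and *Tet2* (-0.01) at Day 2 lie apart from their circles.

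Genes that act with these enzymes were counted in 7 lists of 64 genes in all, of which 56 passed the minimum mean at Day 2 and 57 at Day 4. At Day 2, 5 of them were higher (background 9.17% of all genes tested) and 9 lower (background 10.6%) in the libraries labelled OHT. At Day 4, 12 were higher (background 23.5%) and 20 lower (background 21.7%), with a median log2 fold change of -0.03. The plot of the lists shows every gene tested.

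Where called, the genes of the lists tied to keeping, guiding or limiting methylation were mostly lower at Day 4. Of 10 partners of maintenance methylation, 5 were called at Day 4, all lower (median of the 10, -0.08; background 21.7% lower and 23.5% higher), among them *Pcna*, the replication clamp (-0.26 ± 0.04, DESeq2, adjusted p = 1.89e-11), and *Trim28*, the corepressor of KRAB zinc finger proteins (-0.17 ± 0.02, DESeq2, adjusted p = 1.43e-10). *Cdca7* and the remodeller *Hells*, which act together, were at -0.15 ± 0.04 and -0.14 ± 0.04 (DESeq2, adjusted p = 1.37e-04 and 0.00204). At Day 2, 2 of the 10 were called, both lower (background 10.6%). Among 6 genes that guide or limit de novo methylation, 1 was higher and 4 lower at Day 4 (median -0.25), against 2 and 1 at Day 2, with the same backgrounds and 9.17% higher at Day 2. The one that was higher was *Prdm14*, which represses de novo methyltransferase genes in naive mESCs (0.25 ± 0.07, DESeq2, adjusted p = 0.00186). From Day 2 to Day 4 *Prdm14* fell in EtOH (-0.34 ± 0.07, DESeq2, adjusted p = 3.97e-05). In the libraries labelled OHT its difference with time was -0.10 ± 0.07 and not called (DESeq2, adjusted p = 0.262). *Dppa3*, an inhibitor of UHRF1, was lower on both days, with log2 fold changes of -0.37 ± 0.06 and -0.32 ± 0.06 (DESeq2, adjusted p = 1.05e-07 and 2.97e-06). *Setd2*, the histone H3 lysine 36 methyltransferase, was higher at Day 2 (0.32 ± 0.06, DESeq2, adjusted p = 4.50e-06) and lower at Day 4 (-0.27 ± 0.05, DESeq2, adjusted p = 1.27e-06). Its mean effective length was 5275 bases, under the 6000 used above, and the part of gene length in its values was not tested. The histone demethylase *Kdm1b* was lower at Day 4 (-0.27 ± 0.06, DESeq2, adjusted p = 1.37e-04).

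In the methyl donor cycle, 4 of 9 genes were called at Day 4, all lower (median of the 9, -0.06; background 21.7%), and 1 at Day 2, also lower (background 10.6%). *Mat2a*, which makes S-adenosylmethionine and is also on the list of PRDM10-bound genes, was lower on both days (-0.13 ± 0.04 and -0.24 ± 0.03, DESeq2, adjusted p = 0.00314 and 3.98e-13). Its counts at Day 4 were 22270, 21343 and 21365 in EtOH and 18945, 18235 and 18093 in the libraries labelled OHT, with no overlap. *Mtap* and *Mtrr*, which salvage and regenerate methionine, were at -0.20 ± 0.04 and -0.20 ± 0.05 (DESeq2, adjusted p = 2.19e-06 and 3.36e-04). *Adk*, the adenosine kinase, was at -0.16 ± 0.05 (DESeq2, adjusted p = 0.00482).

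The lists tied to removing methylation were mixed. Of 5 tested partners and cofactor suppliers of TET, 3 were higher (background 23.5%) and 1 lower (background 21.7%) at Day 4 (median 0.13), and 1 and 1 at Day 2 (background 9.17% and 10.6%). *Idh2*, which makes the TET cosubstrate alpha-ketoglutarate in mitochondria, had 2553, 2581 and 2471 counts in EtOH and 4099, 4278 and 4166 in the libraries labelled OHT at Day 4, a log2 fold change of 0.72 ± 0.04 (DESeq2, adjusted p = 1.65e-62). *Cxxc5* (0.26 ± 0.07) and *Ogt* (0.13 ± 0.03) were higher and *Sin3a* (-0.17 ± 0.04) lower, with DESeq2 adjusted p of 4.09e-04, 4.19e-04 and 3.12e-04. In base excision repair and demethylation, 6 of 13 tested genes were higher and 4 lower at Day 4 (median 0.09), and 2 and 3 at Day 2, against the same backgrounds. The DNA glycosylase *Neil2* differed most, with 199, 219 and 203 counts in EtOH and 424, 439 and 461 in the libraries labelled OHT (1.09 ± 0.11, DESeq2, adjusted p = 1.08e-19). *Neil3* (0.62 ± 0.11), *Gadd45b* (0.55 ± 0.10) and *Gadd45a* (0.36 ± 0.05) were also higher, with DESeq2 adjusted p of 4.43e-08, 1.24e-07 and 3.44e-10. At Day 2 *Gadd45a* had been lower (-0.26 ± 0.06, DESeq2, adjusted p = 9.01e-04). With time in EtOH, *Neil2* (-0.99 ± 0.12), *Gadd45b* (-0.66 ± 0.10) and *Neil3* (-0.31 ± 0.12) fell, with DESeq2 adjusted p of 2.06e-15, 3.74e-10 and 0.0281. In the libraries labelled OHT these were at -0.21, -0.08 and 0.12 and not called. *Gadd45a* was not called with time in EtOH (-0.07) and rose in the libraries labelled OHT (0.56 ± 0.06, DESeq2, adjusted p = 1.57e-19).

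Readers of methylated DNA gave 1 higher (background 23.5%) and 1 lower (background 21.7%) of 6 at Day 4 (median -0.02), namely *Mbd1* (0.22 ± 0.07) and *Mbd3* (-0.31 ± 0.05), with DESeq2 adjusted p of 0.00324 and 1.82e-07. At Day 2, DESeq2 called 0 of the 6 (background 9.17% higher and 10.6% lower), with 2 at an unadjusted p under 0.05 and 2 called by edgeR. The germline genes, whose promoters are silenced by methylation in somatic cells, gave 1 higher (background 23.5%) and 1 lower (background 21.7%) of 8 tested at Day 4 (median 0.04). At Day 2 only *Dazl* of 7 was called, as lower (background 10.6% lower and 9.17% higher). *Dazl*, a germ cell RNA-binding protein, was lower on both days (-0.47 ± 0.11 and -0.60 ± 0.08, DESeq2, adjusted p = 1.71e-04 and 1.09e-11). *Sycp3*, of the synaptonemal complex, was higher at Day 4 (0.55 ± 0.13, DESeq2, adjusted p = 1.79e-04). With time in EtOH, 7 of the 8 germline genes tested rose (background 20.6%) and 1 fell (median 0.57; background 20.5%). In the libraries labelled OHT, 7 of the 8 rose as well (background 30.7%) and 0 fell (median 0.74; background 22.9%).

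**Figure D5:**
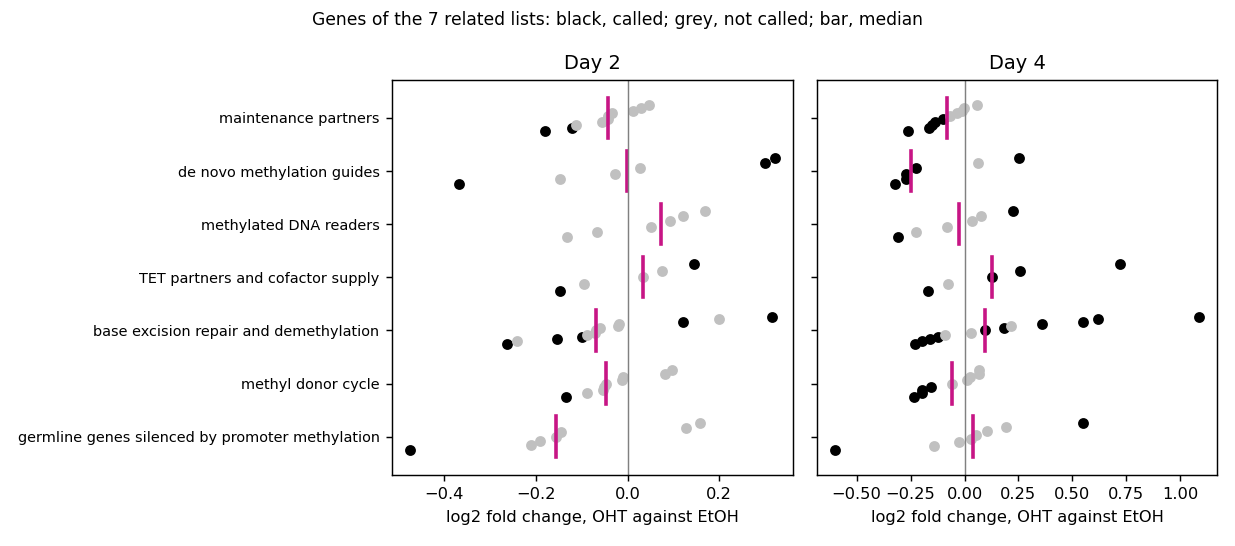
Log2 fold change, OHT against EtOH (horizontal axes), of the genes in 7 lists that passed the minimum mean, at Day 2 and Day 4. Each point is a gene, black where called and grey where not, and the coloured bar is the median of the list. At Day 4 the points run from *Dazl* (-0.60) to *Neil2* (1.09), and the medians lie between -0.25 and 0.13.

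The genes whose log2 normalised counts went most closely with each of the 9 over the 12 libraries were taken from 11615 others. Pearson's r is given as a description, since the libraries share 4 groups. *Tet1* went with *Qser1* (0.995) and *Mrtfb* (0.991), with mean effective lengths of 8830 and 5684 bases, *Dnmt1* with *Noct* (0.994) and *Polr2l* (0.985), and *Uhrf1* with *2210409E12Rik* (0.991) and *Myh6* (0.99). For *Dnmt3a* they were *Dpp4* (0.987) and *Peg3* (0.985), for *Dnmt3b* *Dcbld1* (0.983) and *Gemin4* (0.977), and for *Dnmt3l* *Thoc6* (0.987) and *P2rx4* (0.987). *Tdg* went with *P4hb* (0.985) and *Tmem97* (0.982). The closest genes of *Tet2* (*Klf5*, 0.932, and *Dcp1a*, 0.923) and *Tet3* (*Cnot3*, 0.902, and *Gli2*, 0.898) were less close.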

How the data were processed

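RNA was sequenced from 12 mESC libraries, 3 for each of 4 groups taken from the sample titles. The authors made stranded libraries from total RNA, mapped reads to GRCm38.p6 with STAR (version 2.6.0c) and quantified genes with RSEM. The deposited expected counts (estimated read pairs per gene) and TPM values were made by the authors one library at a time, and TPM is scaled to a fixed total within a library. Log2 fold changes and p-values in the authors' own tables came from DESeq2 (version 1.22.2) and were used for symbols only. RSEM's deposited effective lengths and posterior SDs of counts, a score of shared reads, were used as given.

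Expected counts were rounded and all 54146 genes fitted with DESeq2 (version 1.42.0, R 4.3.3): Wald test, median-of-ratios size factors, independent filtering, Benjamini-Hochberg adjustment. Calls needed an adjusted p under 0.05 together with a mean over 100 normalised counts. The difference between the days was the interaction of treatment and day over 12 libraries. Ratios and effective lengths were compared by exact permutation tests (SciPy version 1.17.1). The fits were tested on simulated data. Depths of 35017667 to 41409992 expected counts set the counting error of each value, which for some of the 9 genes is as large as the spread between libraries, and PCR reads without molecular identifiers are not independent molecules. Positions, symbols and promoter windows are of GRCm38, and all 9 genes matched.

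Alternatives were the edgeR quasi-likelihood test (version 4.0.16), TMM factors, total counts, effective lengths as offsets, a block for the replicate number (also together with those offsets), a single fit of the 12 libraries, dropping the minimum mean, adjusting only over genes that pass it, leaving out each library, and posterior mean TPM for the ratios. A further alternative took each gene's log2 normalised count (0.5 added) as a deviation from its mean over the libraries. Per library, a loess curve (span 0.3) was fitted to these deviations against log effective length, over genes above the minimum mean. The curve, together with the size factors, entered DESeq2 as normalisation factors. This alternative was chosen after seeing the data. The 9 genes, the lists and the named genes were chosen with earlier results of these data known. Named from each list were up to 4 genes called at Day 4 with the largest absolute log2 fold change, and any on the study's list of PRDM10-bound genes. 1 gene of the lists is not reported here.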

Additional observations from a re-analysis of the deposited data

Results flagged for a closer look

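Of the 9 genes, 7 had an OHT effect that differed between the days by the interaction test of DESeq2. The background was 18.7% of 11616 genes higher and 13.6% lower. Effects are given here as the Day 4 effect minus the Day 2 effect on the log2 scale. The values were -1.03 for *Tet1*, -0.63 for *Dnmt3a*, -0.41 for *Dnmt3b*, -0.29 for *Tet2*, -0.20 for *Tdg*, -0.16 for *Dnmt1* and 0.41 for *Dnmt3l*. *Tet1* was called in opposite directions on the 2 days. The *Tet1* to *Tet2* ratio of TPM was higher by 0.371 in the libraries labelled OHT at Day 2, and at Day 4 its OHT minus EtOH difference was -0.309, with no overlap on either day. That difference between the days was not tested.

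Over the 57 genes of the related lists tested, the same interaction test called 10 higher (background 18.7% of 11616 genes) and 9 lower (background 13.6%). The named genes were picked by their Day 4 fold changes, which enter this test, so their share is not set against the background. Of the named genes, 12 were called. Among those that act in removing methylation the values were 0.78 for *Neil2*, 0.69 for *Idh2*, 0.63 for *Gadd45a*, 0.57 for *Gadd45b*, 0.42 for *Neil3*, 0.36 for *Cxxc5* and -0.31 for *Sin3a*. The remaining values were -0.14 for *Mtap*, of methyl donor supply, -0.59 for *Setd2*, -0.22 for *Pcna*, -0.12 for *Trim28* and 0.23 for *Prdm14*.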

How the results depend on the processing

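No call of a member at Day 4 was lost under any alternative run. At Day 2 the calls of *Dnmt1* and *Tet1* held under all of them, while the number of members called higher, 2, was 5 by edgeR, 4 by total counts, 4 with all 12 libraries in 1 fit and 1 to 3 with a library left out. Of all genes at Day 2, edgeR called 1876 higher and 1968 lower, total counts called 638 lower, and leaving out a library gave 615 to 1056 higher and 586 to 1128 lower, with fewer than in the full fit by over 1.5 times without EtOH replicate 1 or 2. Of the genes of the lists at Day 2, edgeR called 14 lower, total counts 4 lower, removal of the length trend 3 higher, and leaving out a library gave 2 to 4 higher and 5 to 8 lower. Over all genes, the correlations of deviations of same-numbered libraries ran from -0.231 to 0.121 between the labels and from -0.385 to 0.285 between the days. These cannot decide whether the replicate numbers pair the libraries, because single genes may follow them. *Tet1*, for instance, was lowest in replicate 1 of every group. With the replicate block the Day 2 counts were 1 member higher (*Dnmt3l* was lost), 658 genes higher, 659 lower and 3 list genes higher. With the block and effective lengths they were 634 genes higher, 539 lower, 3 list genes higher and 4 lower, 1665 genes were lower at Day 4, and *Tet1* was the 1 member called lower with time in EtOH (-0.15). Signs changed only for values that were not called in the primary fit. *Dnmt3a* at Day 2 was 0.0034 by edgeR, 0.0033 by TMM factors, 0.031 by total counts, 0.021 with effective lengths, 0.020 with these and the block, and -0.028 to 0.032 with a library left out. With the length trend removed *Uhrf1* at Day 4 was -0.0018 and *Tet2* at Day 2 -0.0071, and *Tet2* with time in the libraries labelled OHT was 0.13 and called. *Tet3* at Day 4 was 0.0066 with effective lengths, 0.0088 with these and the block, 0.0064 with the length trend removed, and -0.13 to 0.058 with a library left out. With time in EtOH, leaving out a library gave *Tet1* from -0.13 to 0.088 and *Tet3* from -0.037 to 0.31, and *Tdg* was 0.0027 by total counts. The cause was not tested. *Tet3* had the lowest counts of the 9 genes, and leaving out 1 library turned its Day 2 call.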
